A study of Homo sapiens with 12 samples.

Results

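Cytosolic protein synthesis depends on initiation factors (eIF), which bring the ribosome and the initiator tRNA to the start codon of an mRNA, and on elongation factors (eEF), which deliver aminoacyl-tRNAs and move the ribosome along. The genes described here have a symbol that starts with EIF or EEF followed by a digit. Of 212 such symbols in the deposited table, 136 were pseudogenes and 4 were antisense or divergent transcripts, which left 72 genes. Of these, 66 reached a value of 10 in 4 or more of the 12 libraries and were described as members, out of 16950 genes tested in all. The 6 genes below that filter were EEF1G, EIF4E1B, EIF4EBP3, EIF1AY, a Y-linked relative of EIF1AX, and the readthrough loci EEF1AKMT4-ECE2 and EEF1E1-BLOC1S5.

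The RNA came from KYSE70, an established human esophageal squamous cell carcinoma line. There were 4 libraries of untreated cells (control), 4 of cells exposed to pyrimethamine at 10 µM for 72 h, and 4 of cells exposed to mitoxantrone at 20 nM for 72 h. Pyrimethamine is an antifolate used against parasites, mitoxantrone is an anticancer drug that poisons type II topoisomerases, and the series title calls both NRF2 inhibitors. The labels do not say whether the control received a vehicle, nor whether the libraries within a group were separate cultures, so p-values measure only the spread between these libraries, which may be technical. Only this 1 line was used, and both drug comparisons share the same 4 control libraries.

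Initiation is controlled at 2 main points. The first is eIF2, the GTPase that carries initiator tRNA: when 1 of its kinases phosphorylates its alpha subunit, eIF2 blocks its own exchange factor eIF2B, and general initiation slows while a few mRNAs such as that of ATF4 are translated more. The second is the cap-binding protein eIF4E, which joins the scaffold eIF4G and the helicase eIF4A at the mRNA cap unless a 4E-binding protein occupies it; the kinase mTORC1 phosphorylates these binding proteins and releases eIF4E. mTORC1 also governs translation of mRNAs that begin with a terminal oligopyrimidine (TOP) tract, a class that includes ribosomal protein mRNAs and those of several elongation factors.

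Libraries held 47465335 to 94516756 reads assigned to genes. The values are normalized counts, that is, reads divided by 1 factor per library, and log2 changes were fitted on log2(value + 1). All 11 squamous and epithelial markers examined, TP63, SOX2 and KRT5 among them, had a median of at least 10 normalized counts over the libraries. The fibroblast markers COL1A2 and DCN had a median of 0, but COL1A1 and COL3A1 were expressed, and the summed fibroblast list ran from 16889 to 17596 in the control, 11847 to 13229.8 under pyrimethamine and 5873 to 7647 under mitoxantrone; its part in the results below was not tested. Immune markers summed to at most 32.9 in any library, and of the endothelial markers PECAM1 and KDR had a median of 0 although VWF was expressed. The endothelial sum was 948 to 1059 in the control, 1049 to 1153 under pyrimethamine and 175 to 247 under mitoxantrone, and the squamous sum 401756 to 428529, 496085 to 524700 and 383965 to 410153; their part in the results was not tested either. Mitoxantrone replicate 1 stood apart from the other 3 mitoxantrone libraries for several members. Without it, 13 member calls differed over the 3 comparisons: EEF1A1, EEF1AKMT4, EIF3K, EIF4A2, EIF4H and EIF5 were then called under pyrimethamine, EIF2B2, EIF3D and EIF3I were called and EEF1AKMT2 and EEF2K no longer called under mitoxantrone, and EIF4E2 and EIF4G1 were called between the drugs. Together the members took 2.41% ± 0.00827 (SD, n = 4) of all normalized counts in the control, against 2.22% ± 0.0333 in the pyrimethamine libraries and 3.08% ± 0.142 in the mitoxantrone libraries (n = 4 each). Without EEF1A1 and EEF2, the most abundant members, these shares were 1.47%, 1.37% and 1.75%. Transcripts of the mitochondrial genome, part of the same total, took 6.43%, 7.65% and 3.71% in the same order, and their part in the members' shares was not tested. In bulk RNA, a lower level in every cell and fewer cells with the RNA cannot be told apart.

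Many members share exon sequence with another annotated gene, and a few closely resemble one, so the count may say little about the gene's level. Whether this accounts for low counts was not tested. The overlapped part of the exon sequence was 24.2% in EIF4E2, 23.6% in EIF2B2, 19.1% in EEF1AKMT3 and 18.7% in EEF1E1. It was 17.9% in EIF4A2 and 17.4% in EIF6 and EEF1B2, and some other overlaps are given with the genes. EEF1G, a subunit of the eEF1 exchange complex, was listed at 0 in all 12 libraries, and 99.9% of its exon sequence is shared with the readthrough gene AP002990.1, itself listed at 0 to 3.56. EIF4A1, a gene of the eIF4A helicase, was listed at only 13.1 to 53.7 normalized counts, or 4.32 ± 1.43 per kb of exon in the control, against 5383 ± 88.1 per kb for its paralog EIF4A2 (SD, n = 4 each). Of the EIF4A1 exon sequence, 48.6% overlaps other annotated genes. Among these, SENP3-EIF4A1 was listed at 0 to 5.27 and AC016876.2 at 0 to 1.02. Its 13 pseudogenes together held 263% to 671% of the EIF4A1 value, which is only 83.7 to 182 normalized counts. EIF3C had 198 ± 11.2 normalized counts per kb of exon in the control, whereas the other single-copy eIF3 subunits had 1067 to 9743, and EIF3C has a near-identical copy, EIF3CL, at 18.1 ± 1.85. Values of EEF1G, EIF4A1, EIF3C, EIF3CL, EIF2S3B (a copy of EIF2S3) and EIF5AL1 (a copy of EIF5A) are therefore uncertain as levels of these genes. How the authors' counting treated reads shared between genes is not given in the sources used here.

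Under pyrimethamine, 25 of the 66 members were lower than in the control, 14 were higher and 27 were not called at an adjusted p under 0.05. Over all genes tested, 53.3% were called, 26.9% lower and 26.4% higher, and the median log2 change was 0.0018 over all genes and -0.07 over the members. Changes were small: 3 members (EEF2KMT, EIF4EBP1 and EIF4B) were at least 1.5-fold lower and 0 at least 1.5-fold higher, while 15% of all genes were called and changed at least 1.5-fold. Under mitoxantrone, 45 members were higher than in the control, 8 lower and 13 not called. Of all genes, 69.3% were called, 33.5% higher and 35.8% lower, and the median log2 change was -0.0080 over all genes and 0.24 over the members. Of these members, 14 were at least 1.5-fold higher and 2 (EEF1A2 and EIF4EBP2) at least 1.5-fold lower, against 30.6% of all genes in either direction. The 14 include EIF4A1 and EIF2S3B, whose values are uncertain as stated above. Standard errors were smaller for the members, with a median of 0.0446 against 0.0719 over all genes. Once genes averaging under 100 were dropped, 9283 of 12097 were called under mitoxantrone. Of these 5053 were higher and 4230 lower, and the median log2 change over the 12097 was 0.043. Under pyrimethamine 3697 of the 12097 were higher and 4189 lower, with a median of -0.018. The part of precision in the members' calls was not tested. For 48 members the mitoxantrone and control libraries did not overlap, as for 60.9% of all genes, and for 44 the pyrimethamine and control libraries did not, as for 51.1%. Between the drugs, 47 members were higher under mitoxantrone than under pyrimethamine, 10 were lower and 9 were not called, where 76.4% of all genes were called, 36.9% higher and 39.5% lower. In that comparison 18 members were at least 1.5-fold higher and 3 at least 1.5-fold lower (41.9% of all genes in either direction), and for 53 the libraries did not overlap (68.8% of all genes). With libraries rescaled to the same total, the split over all genes for mitoxantrone against the control went from 5681 higher and 6064 lower to 4420 and 7211, and the median over all genes became -0.11. In that scaling 39 members were higher and 11 lower, and under quantile normalization 37 and 12.

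**Figure D1:**
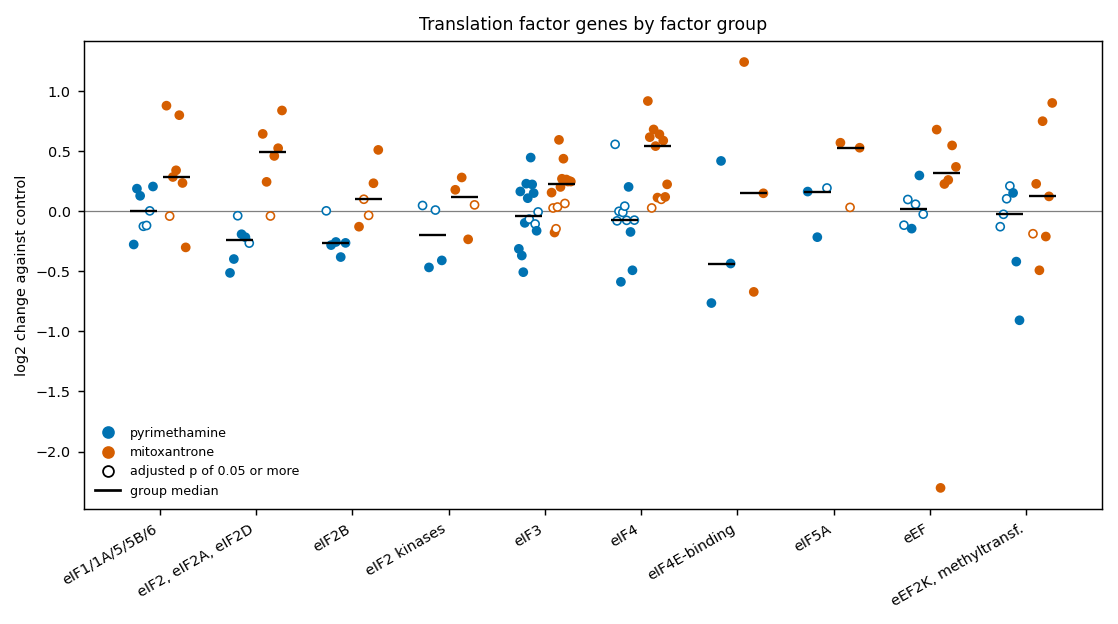
Log2 change against the control (vertical axis) of the 66 members by factor group, pyrimethamine in blue and mitoxantrone in orange, with filled points for genes called at an adjusted p under 0.05 and a black line for each group's median. Mitoxantrone medians lie above 0 in all 10 groups, from 0.0998 for eIF2B to 0.54 for eIF4, and the lowest point is EEF1A2 at -2.30.

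EIF4EBP1 moved further than any other initiation factor gene under mitoxantrone, and its paralog EIF4EBP2 moved the opposite way under each drug. Both encode small repressors that hold eIF4E away from eIF4G. EIF4EBP1 (chromosome 8, 38030341 to 38060365 of GRCh38) held 3821, 3848, 3725 and 4123 normalized counts in the control libraries, 2437, 2229, 2219 and 2250.4 under pyrimethamine, and 7042, 10840.2, 9438 and 9807 under mitoxantrone. The 3 groups did not overlap, with pyrimethamine lowest and mitoxantrone highest. EIF4EBP1 was 1.70-fold lower under pyrimethamine than in the control (log2 change -0.76, SE 0.0823, adjusted p = 1.01e-07) and 2.36-fold higher under mitoxantrone (log2 change 1.24, adjusted p = 1.94e-11). Between the drugs it differed 4.02-fold (log2 change 2.01, adjusted p = 2.47e-15), the largest rise of any member in that comparison. Without mitoxantrone replicate 1, its lowest mitoxantrone library, the log2 change against the control was 1.37.

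EIF4EBP2 (chromosome 10, 70404379 to 70428618) had 12160.4, 11113, 11889 and 11883 normalized counts in the control, 15374, 15704, 16570.4 and 15237 under pyrimethamine, and 8334, 6977, 7175 and 7117 under mitoxantrone. Again the groups did not overlap, but pyrimethamine was highest and mitoxantrone lowest. It was 1.34-fold higher under pyrimethamine (log2 change 0.42, SE 0.0481, adjusted p = 2.48e-07) and 1.59-fold lower under mitoxantrone (log2 change -0.67, adjusted p = 6.90e-11). The ratio of EIF4EBP1 to EIF4EBP2 within a library is not altered by dividing that library by 1 factor. It was 0.313 to 0.347 in the control, 0.134 to 0.159 under pyrimethamine and 0.845 to 1.55 under mitoxantrone. This ratio of counts is not corrected for exon length and does not show which gene had more transcripts. Per kb of exon the control held 3615 normalized counts for EIF4EBP1 and 1621 for EIF4EBP2. EIF4EBP3, the remaining 4E-binding protein gene, was at 0 to 2.64 normalized counts, with 73.4% of its exon sequence shared with the readthrough gene ANKHD1-EIF4EBP3. EIF4ENIF1, which encodes the 4E-transporter that carries eIF4E into the nucleus and represses bound mRNAs, fell under pyrimethamine from 1914 ± 74.1 to 1415 ± 68.1 (SD, n = 4 each; log2 change -0.44, adjusted p = 1.99e-07). Under mitoxantrone it was at 2122 ± 86.4 (log2 change 0.15, adjusted p = 0.0105), a call that was lost under equal library totals, upper-quartile rescaling and quantile normalization.

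**Figure D2:**
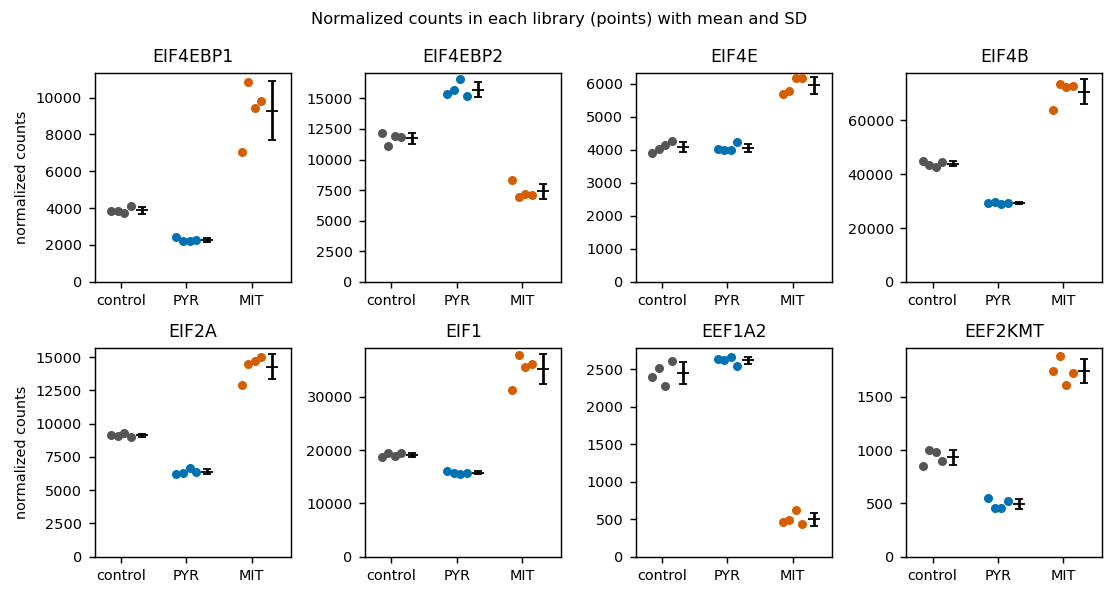
Normalized counts (vertical axis, from 0) of 8 members in each library, with control, pyrimethamine (PYR) and mitoxantrone (MIT) side by side and the mean and SD of the 4 libraries in black beside the points. EIF4EBP1 is lowest under pyrimethamine and highest under mitoxantrone, EIF4EBP2 shows the reverse order, and EEF1A2 falls to 430.5 to 621 under mitoxantrone.

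EIF4E, the cap-binding protein gene, had 3902 to 4254 normalized counts in the control, 3986 to 4229 under pyrimethamine and 5686, 5779, 6165 and 6170.1 under mitoxantrone. The mitoxantrone libraries lay above all others, 1.46-fold over the control (log2 change 0.54, SE 0.0406, adjusted p = 1.37e-10), and differed from pyrimethamine directly by 0.55 (adjusted p = 5.14e-11). For pyrimethamine the log2 change was -0.01 (adjusted p = 0.858). EIF4EBP1 counts per EIF4E count were 0.896 to 0.979 in the control, 0.532 to 0.606 under pyrimethamine and 1.24 to 1.88 under mitoxantrone. EIF4EBP2 counts per EIF4E count were 2.76 to 3.12, 3.60 to 4.16 and 1.15 to 1.47 in the same order. Neither ratio is corrected for exon length, and EIF4E held 290 normalized counts per kb of exon in the control. EIF4E3, a cap-binding relative, rose under mitoxantrone from 1782 ± 38.3 to 2778 ± 70.0 normalized counts (SD, n = 4 each; log2 change 0.64, adjusted p = 1.40e-11). EIF4E2, a cap-binding protein that represses translation, had a log2 change of 0.11 under mitoxantrone (adjusted p = 0.0151), a call that was lost under 5 of 25 other settings, among them each of 3 other scalings and leaving out control replicate 1 or mitoxantrone replicate 2.

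Across the 11 eIF4 genes other than binding proteins, 9 were higher, 0 lower and 2 (EIF4A3 and EIF4G1) not called under mitoxantrone (median log2 change 0.54). EIF4A1 is among the 9 with its few reads. So is EIF4G3, whose call (log2 change 0.12, adjusted p = 0.0212) was lost under 6 of 25 other settings. Under pyrimethamine 1 (EIF4G1) was higher, 3 (EIF4B, EIF4G3 and EIF4G2) lower and 7 not called, with a median of -0.07. EIF4B, the cofactor that stimulates the eIF4A helicase, held 45110.3, 43560.2, 42775 and 44527 normalized counts in the control, 29155, 29824, 28886 and 29226 under pyrimethamine, and 63718, 73714, 72375 and 72669 under mitoxantrone. The groups were far apart, lower under pyrimethamine (log2 change -0.59, SE 0.0419, adjusted p = 2.35e-10) and 1.60-fold higher under mitoxantrone (log2 change 0.68, adjusted p = 5.90e-12). EIF4A2 rose under mitoxantrone from 33012 ± 540.4 to 50678 ± 3034 (log2 change 0.62, adjusted p = 4.05e-11) and stood at 31249.6 ± 1447 under pyrimethamine (SD, n = 4 each; adjusted p = 0.122), a value called lower under 5 of 25 other settings (adjusted p = 0.0495 without mitoxantrone replicate 1). EIF4H, the EIF4B-like cofactor, had log2 changes of -0.07 under pyrimethamine (adjusted p = 0.0736, called lower under 7 of 25 other settings, without mitoxantrone replicate 1 among them) and 0.22 under mitoxantrone (adjusted p = 5.72e-06), the latter not called under quantile normalization.

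The eIF4G scaffold genes did not move together. EIF4G2, which encodes the scaffold DAP5 that lacks the eIF4E-binding part and serves cap-independent initiation, held 134850.0, 134468, 136727 and 129088 normalized counts in the control, 118134, 119422, 117486 and 119722 under pyrimethamine, and 196896, 203841, 203929 and 199572 under mitoxantrone. It fell 1.13-fold under pyrimethamine (log2 change -0.17, adjusted p = 7.08e-04) and rose under mitoxantrone (log2 change 0.59, adjusted p = 1.59e-11), with no overlap among the groups. EIF4G3 fell under pyrimethamine from 8686 ± 142 to 6189.6 ± 445 (SD, n = 4 each; log2 change -0.49, adjusted p = 6.96e-09). EIF4G1, the main scaffold, rose under pyrimethamine from 88429.6 ± 1747 to 101769 ± 2503 (log2 change 0.20, adjusted p = 0.00292), but had -0.03 (adjusted p = 0.716) under quantile normalization. Under mitoxantrone its libraries spread from 84218 to 106071 and the log2 change was 0.10 (adjusted p = 0.103), which quantile normalization turned to -0.27 (adjusted p = 0.000755) and which passed the test without mitoxantrone replicate 4. The ratio of EIF4G3 to EIF4G1 was 0.0963 to 0.102 in the control, 0.0579 to 0.0649 under pyrimethamine and 0.0910 to 0.108 under mitoxantrone.

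Promoter sequence is shown for EIF4E and EIF4G1, the cap-binding protein and its main scaffold, as 2 of 4 members whose promoter holds 2 copies of the E-box CACGTG, the site bound by MYC and related factors; EEF1AKMT4 and EIF5A2 are the others. Of the pair shown, EIF4E was called under mitoxantrone and EIF4G1 under pyrimethamine. RefSeq promoters (GRCh38.p14) matched 51 of the 66 members, and the 250 bases before the annotated start were searched on both strands. The 15 members without a match were not searched, for motifs or for the starts described below. They are EIF4EBP1, EEF1A2, EEF2KMT, EEF1AKMT1, EEF1AKMT3, EEF1AKNMT, EEF1D, EIF2AK1, EIF2S2, EIF3A, EIF3CL, EIF3E, EIF3G, EIF3H and EIF3L. An E-box was present in 13 of the 51, against 7.84% of 15842 protein-coding promoters of the same length. Of these 13 members 9 were higher and 0 lower under mitoxantrone (median 0.22), and of the 38 without an E-box 26 were higher and 5 lower (median 0.24). The C/EBP-ATF element TGATGNAA was found in 0 of the 51 windows, against 2.21% of promoters, and the antioxidant response element TGACNNNGC in 10, against 11.5%. A match describes letters in this window, not a bound site. The capitals mark the E-boxes, which start 225 and 72 bases before the EIF4E start on chr4:98929134-98929383 (minus strand) and 144 and 67 bases before the EIF4G1 start on chr3:184314356-184314605 (plus strand).
EIF4E: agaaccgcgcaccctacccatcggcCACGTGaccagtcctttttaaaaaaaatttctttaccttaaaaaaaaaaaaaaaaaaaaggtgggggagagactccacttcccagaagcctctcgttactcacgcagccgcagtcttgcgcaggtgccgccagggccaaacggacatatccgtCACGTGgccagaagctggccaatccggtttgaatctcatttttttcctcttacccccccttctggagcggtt
EIF4G1: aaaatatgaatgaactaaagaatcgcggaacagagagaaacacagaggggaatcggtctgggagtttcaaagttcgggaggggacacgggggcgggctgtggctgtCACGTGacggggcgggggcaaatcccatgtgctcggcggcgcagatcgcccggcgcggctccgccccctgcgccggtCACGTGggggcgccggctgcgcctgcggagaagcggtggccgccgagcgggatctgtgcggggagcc

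Among the genes of eIF2 itself, the beta and gamma subunits moved and the alpha subunit did not pass the test. EIF2S1, the alpha subunit that the stress kinases phosphorylate, had 14636 to 15273 normalized counts in the control, 14242 to 15175 under pyrimethamine and 13694 to 15106 under mitoxantrone, with log2 changes of -0.04 for either drug (SE 0.0368, adjusted p = 0.411 and 0.347). The groups overlapped throughout, although EIF2S1 was called lower under mitoxantrone with each of 3 other scalings. EIF2S2, the beta subunit, fell under pyrimethamine from 22068 ± 349 to 19329 ± 484 (log2 change -0.19, adjusted p = 0.00139) and rose under mitoxantrone to 30439.6 ± 2519.5 (SD, n = 4 each; log2 change 0.46, adjusted p = 1.33e-08). EIF2S3, the gamma subunit that binds GTP and tRNA, held 23503, 23728, 23785 and 23056 in the control, 19039, 19815, 20637 and 21570.0 under pyrimethamine, and 32158, 33664, 34284 and 35282 under mitoxantrone. Its groups did not overlap, with log2 changes of -0.22 (adjusted p = 9.28e-05) and 0.52 (adjusted p = 1.57e-10). The copy EIF2S3B, at 17.7 to 48.2 normalized counts, was called higher under mitoxantrone (log2 change 0.84, adjusted p = 0.00377).

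EIF2A and EIF2D, which can deliver initiator tRNA without eIF2, were also lowest under pyrimethamine and highest under mitoxantrone. EIF2A (chromosome 3, 150546678 to 150584242), a separate protein from the alpha subunit of eIF2, held 9169.9, 9064, 9282 and 9016 normalized counts in the control, 6245, 6282, 6697 and 6379 under pyrimethamine, and 12928, 14511, 14721 and 15003 under mitoxantrone. That is 1.43-fold lower under pyrimethamine (log2 change -0.51, SE 0.0417, adjusted p = 1.63e-09), 1.56-fold higher under mitoxantrone (log2 change 0.64, adjusted p = 1.37e-11) and 2.23-fold apart between the drugs (adjusted p = 2.86e-16). EIF2D went from 3491 ± 99.5 to 2650.0 ± 87.7 under pyrimethamine (log2 change -0.40, adjusted p = 1.25e-07) and to 4139 ± 220.0 under mitoxantrone (SD, n = 4 each; log2 change 0.24, adjusted p = 3.92e-05). In this group of 6 genes, 4 were lower, 0 higher and 2 not called under pyrimethamine, with a median of -0.24, and 5 were higher, 0 lower and 1 not called under mitoxantrone, with a median of 0.49.

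eIF2B, the exchange factor that reloads eIF2 with GTP, is built from 5 subunits, and 4 of their genes fell under pyrimethamine. EIF2B2, EIF2B3, EIF2B4 and EIF2B5 had log2 changes of -0.28, -0.26, -0.38 and -0.26 (adjusted p at most 2.01e-04), and EIF2B1 had 0.0033 (adjusted p = 0.947). EIF2B4, of the regulatory part, held 2248, 2458, 2269 and 2406 normalized counts in the control and 1896, 1721, 1772 and 1812 under pyrimethamine, with no overlap. Under mitoxantrone 2 subunit genes were higher, 1 lower and 2 not called, with a median of 0.0998. EIF2B5, the catalytic subunit, held 6323, 6661, 6378 and 6561 in the control, 5526, 5393, 5364 and 5311 under pyrimethamine, and 8937, 9706, 9025 and 9272 under mitoxantrone, where it was 1.42-fold higher than in the control (log2 change 0.51, SE 0.0357, adjusted p = 4.68e-11). EIF2B4 rose there by 0.23 (adjusted p = 1.06e-04) and EIF2B1 fell by 0.13 on the log2 scale (adjusted p = 0.00292). EIF2B2 had 0.0998 under mitoxantrone (adjusted p = 0.0512), which passed the test under 8 of 25 other settings, and EIF2B3 had -0.03 (adjusted p = 0.557).

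**Figure D3:**
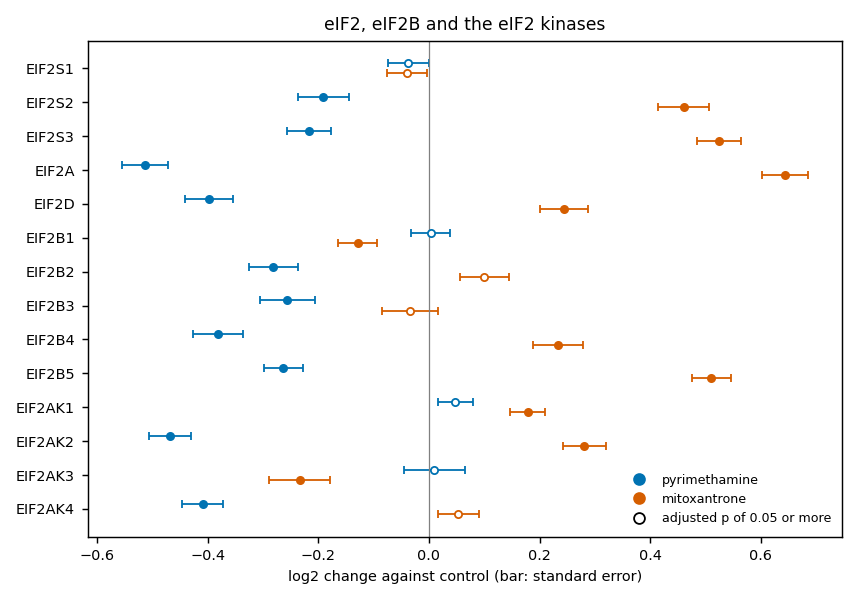
Log2 change against the control (horizontal axis, bars for the standard error) of genes for eIF2 subunits, eIF2A and eIF2D, eIF2B subunits and eIF2 kinases, pyrimethamine in blue and mitoxantrone in orange, with open points for genes that did not pass the test. The subunit gene EIF2S1 lies near 0 for either drug, while EIF2A spans -0.51 to 0.64.

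The 4 kinases of eIF2 answer to different stresses, and their genes moved separately. EIF2AK2, which encodes PKR, the sensor of double-stranded RNA, held 6918, 6464, 6602 and 6370.4 normalized counts in the control, 4518, 5011, 4733 and 4799.8 under pyrimethamine, and 7952, 8089.9, 8081 and 7887 under mitoxantrone. It fell 1.38-fold under pyrimethamine (log2 change -0.47, SE 0.0380, adjusted p = 1.64e-09) and rose 1.22-fold under mitoxantrone (log2 change 0.28, adjusted p = 1.16e-06). EIF2AK4, which encodes GCN2, the sensor of uncharged tRNA, fell under pyrimethamine from 9249 ± 384 to 6961 ± 106 (log2 change -0.41, adjusted p = 7.46e-09) and was at 9592 ± 324 under mitoxantrone (SD, n = 4 each; adjusted p = 0.210). EIF2AK3, which encodes PERK, the endoplasmic reticulum kinase, had 1590.3 to 1823 in the control, 1631 to 1761 under pyrimethamine (adjusted p = 0.899) and 1353 to 1559 under mitoxantrone, a fall of 1.18-fold (log2 change -0.23, adjusted p = 7.98e-04). EIF2AK1, which encodes the heme-regulated kinase HRI and had the highest level per kb of exon of the 4, with 5146 normalized counts per kb in the control against 309.7 to 773.5, had a log2 change of 0.05 under pyrimethamine (adjusted p = 0.222). Under mitoxantrone it rose by 0.18 (adjusted p = 4.45e-05), which quantile normalization removed.

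eIF3, the large complex that holds the small ribosomal subunit and binds eIF4G, has 13 subunits here, and they split by subunit. Under pyrimethamine 6 of the 14 eIF3 genes, EIF3CL included, were higher, 5 lower and 3 not called (median -0.04), and under mitoxantrone 9 were higher, 1 lower and 4 not called (median 0.22). Of the pyrimethamine calls, EIF3D (lower) was lost under 10 of 25 other settings, EIF3F (higher) under 8 of 25 and EIF3CL (lower) under 6 of 24. EIF3H, a subunit of the module with the MPN domain, held 18875, 19634, 19731 and 19561 normalized counts in the control, 25973, 26038, 26933 and 27085 under pyrimethamine, and 23246, 26882, 27556 and 27914 under mitoxantrone. Both drugs lay above the control with no overlap, at log2 changes of 0.45 (adjusted p = 4.68e-08) and 0.44 (adjusted p = 2.59e-08), and between the drugs the difference was -0.0094 (SE 0.0456, adjusted p = 0.858). EIF3E, another subunit, rose from 14611 ± 689.9 to 17127 ± 705 under pyrimethamine (log2 change 0.23, adjusted p = 6.24e-04) and to 22096 ± 1837 under mitoxantrone (SD, n = 4 each; log2 change 0.59, adjusted p = 1.07e-09).

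EIF3A, the largest subunit and the core of the complex, held 37271, 36621, 37307 and 36723 normalized counts in the control, 29549.9, 30731, 28898 and 29919 under pyrimethamine and 42196, 43594, 40342 and 38737 under mitoxantrone. Its pyrimethamine libraries were all below the control, with a log2 change of -0.31 (SE 0.0379, adjusted p = 5.00e-07). The rise under mitoxantrone, 0.16 (adjusted p = 0.00106), became -0.05 (adjusted p = 0.280) under quantile normalization and was also not called under equal library totals. EIF3B, which forms the core with EIF3A, rose under pyrimethamine from 47116 ± 1094 to 52801 ± 349 (log2 change 0.16, adjusted p = 7.56e-04, but adjusted p = 0.456 under quantile normalization) and was at 48028 ± 2156 under mitoxantrone (SD, n = 4 each; adjusted p = 0.531), where quantile normalization gave -0.23 and a call. EIF3I, bound to EIF3B, rose by 0.22 under pyrimethamine (adjusted p = 2.59e-04). Under mitoxantrone EIF3I had 0.06 (adjusted p = 0.207), and 0.12 (adjusted p = 0.00527) without mitoxantrone replicate 1. EIF3G, EIF3J, EIF3K, EIF3L and EIF3M rose under mitoxantrone by 0.25 to 0.27. Under pyrimethamine EIF3J rose by 0.15, EIF3L fell by 0.16 on the log2 scale and EIF3G, EIF3K and EIF3M did not pass the test. Of the EIF3L exon sequence, 51.8% overlaps other annotated genes, among them AL022311.1, listed at 17.8 to 49.5 normalized counts. EIF3K (-0.11, adjusted p = 0.0517) was called lower under 12 of 25 other settings. EIF3C, the only eIF3 gene called lower under mitoxantrone (-0.18, adjusted p = 0.010), is among those with uncertain counts.

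**Figure D4:**
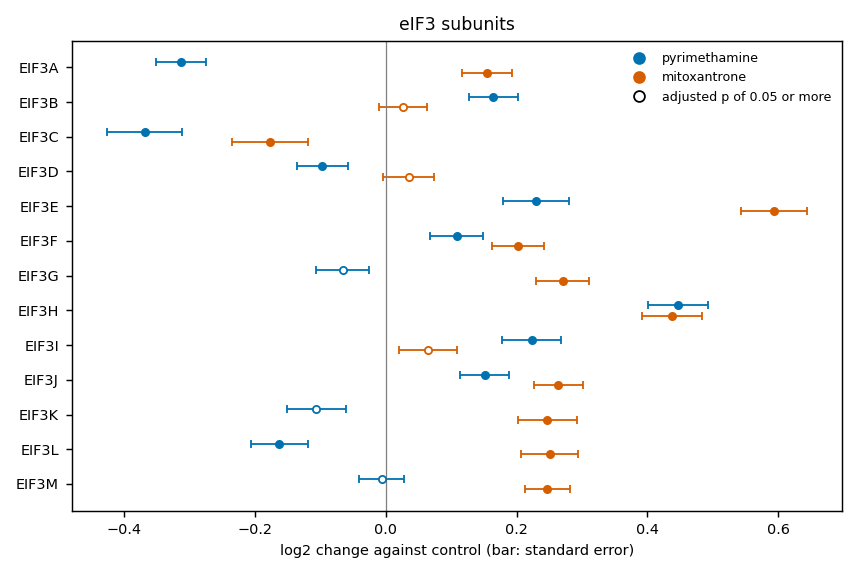
Log2 change against the control (horizontal axis, bars for the standard error) of the 13 eIF3 subunit genes, pyrimethamine in blue and mitoxantrone in orange, with open points for genes that did not pass the test. EIF3H is raised by about the same amount by either drug (0.45 and 0.44), whereas EIF3A lies at -0.31 and 0.16.

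Factors of start-codon choice and subunit joining included some of the largest rises under mitoxantrone. EIF1, which guards the fidelity of start-codon choice, held 18738, 19372, 18887 and 19398 normalized counts in the control, 16085, 15681, 15502 and 15788 under pyrimethamine, and 31288, 37832, 35578 and 36077 under mitoxantrone. It fell 1.21-fold under pyrimethamine (log2 change -0.28, SE 0.0441, adjusted p = 1.79e-05) and rose 1.84-fold under mitoxantrone (log2 change 0.88, adjusted p = 2.16e-13). EIF5, the GTPase-activating partner of eIF2, whose protein works against EIF1 at the start codon, rose under mitoxantrone from 12876 ± 322 to 22539 ± 2747 (log2 change 0.80, adjusted p = 1.31e-10) and stood at 11862 ± 374 under pyrimethamine (SD, n = 4 each; adjusted p = 0.101). That pyrimethamine value was called lower under 3 of 25 other settings, with an adjusted p of 0.00456 without mitoxantrone replicate 1. All 4 pyrimethamine libraries of EIF5 lay below the control range, which was also so for 51.1% of all genes in either direction. EIF1B, a paralog of EIF1, rose under mitoxantrone by 0.34 (adjusted p = 6.03e-05), and its ratio to EIF1 went from 0.0758 to 0.0875 in the control to 0.0475 to 0.0585.

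EIF6, which keeps the large ribosomal subunit from joining too early, rose under pyrimethamine and was the only gene of this group called lower under mitoxantrone. It held 6102, 6278, 5985 and 6100.3 normalized counts in the control, 7231, 6896, 7112 and 6978 under pyrimethamine, and 4912, 5035, 5017 and 4893 under mitoxantrone. The groups did not overlap, with a 1.15-fold rise under pyrimethamine (log2 change 0.21, SE 0.0335, adjusted p = 2.38e-05) and a 1.23-fold fall under mitoxantrone (log2 change -0.30, adjusted p = 6.98e-08). EIF1AX, which helps scanning, rose under mitoxantrone by 0.28 (adjusted p = 7.45e-07), and EIF5B, the GTPase of subunit joining, by 0.24 (adjusted p = 3.19e-04). For EIF1AX the rise of 0.13 under pyrimethamine (adjusted p = 0.00628) was lost under equal library totals and under quantile normalization. In all, 5 of these 7 genes were higher, 1 lower and 1 (EIF1AD) not called under mitoxantrone.

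eIF5A, which carries the modified amino acid hypusine and eases peptide bonds that stall the ribosome, is encoded by EIF5A and EIF5A2. EIF5A held 48164, 49730.1, 51172 and 54152 normalized counts in the control, 59303, 54199, 57463 and 56584 under pyrimethamine, and 72706, 78072, 75298 and 75441 under mitoxantrone. The mitoxantrone libraries stood clear of the rest, at 1.48-fold over the control (log2 change 0.57, SE 0.0416, adjusted p = 8.99e-11). The pyrimethamine rise of 0.16 (adjusted p = 0.00221) was not called under quantile normalization. EIF5A2, the less abundant paralog, fell under pyrimethamine from 1199 ± 59.6 to 1031 ± 23.6 (SD, n = 4 each; log2 change -0.22, adjusted p = 0.00174) and had 0.03 under mitoxantrone (adjusted p = 0.604). Counts of EIF5A2 per count of EIF5A were 0.0220 to 0.0264 in the control, 0.0179 to 0.0187 under pyrimethamine and 0.0158 to 0.0169 under mitoxantrone.

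Elongation factor genes differed most in the pair EEF1A1 and EEF1A2, whose proteins both deliver aminoacyl-tRNA to the ribosome. EEF1A2, the paralog known from neurons and muscle and from some tumors, was the member with the largest fall. It held 2394, 2514, 2276 and 2605 normalized counts in the control, 2629, 2624, 2663 and 2545 under pyrimethamine, and 458, 489, 621 and 430.5 under mitoxantrone. Every mitoxantrone library was far below the others, 4.93-fold lower than the control (log2 change -2.30, SE 0.0789, adjusted p = 5.14e-16), while pyrimethamine overlapped the control (0.10, adjusted p = 0.314). EEF1A1 (chromosome 6, 73515750 to 73523797), the most abundant member per kb of exon, held 403091, 410068, 410195 and 406886 in the control, 380549, 356986, 368097 and 399739 under pyrimethamine, and 541454, 695376, 697723 and 690672 under mitoxantrone. It rose 1.60-fold under mitoxantrone (log2 change 0.68, adjusted p = 1.74e-08), and by 0.77 without mitoxantrone replicate 1, its lowest library there. Its log2 change of -0.12 under pyrimethamine was not called with that library in the fit (adjusted p = 0.166) and called without it (adjusted p = 0.0166), as under 3 of the other settings; the 3 groups share 1 estimate of the spread. The 39 pseudogenes of EEF1A1 together held 0.774% to 0.912% of its value.

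EEF2, the factor that moves the ribosome by 1 codon, rose under mitoxantrone from 177910.0 ± 2594 to 230022 ± 12969 (log2 change 0.37, adjusted p = 2.38e-07) and was at 174950.0 ± 2623 under pyrimethamine (SD, n = 4 each; adjusted p = 0.677). For EEF2 under pyrimethamine, quantile normalization gave a log2 change of -0.21 and a call (adjusted p = 0.000475). EEF1B2 and EEF1D, which reload eEF1A with GTP, rose under mitoxantrone by 0.23 (adjusted p = 0.00102) and 0.26 (adjusted p = 8.50e-06). Of the EEF1D exon sequence, 34.0% overlaps other annotated genes. For EEF1B2 mitoxantrone replicate 1, at 20958, lay within the control range of 20577 to 21507, and its call was lost under quantile normalization. EEF1B2 fell under pyrimethamine by 0.14 on the log2 scale (adjusted p = 0.0318), a call that 8 of 25 other settings removed. EEF1E1, whose protein belongs to the multi-tRNA synthetase complex, rose under either drug, by 0.30 (adjusted p = 0.00664) and 0.55 (adjusted p = 1.03e-05). Of the 6 eEF genes tested, 5 were higher and 1 lower under mitoxantrone, and 1 was higher, 1 lower and 4 not called under pyrimethamine.

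Genes that modify elongation factors gave the widest gap between the drugs after EEF1A2 and EIF4EBP1. EEF2KMT, which encodes a lysine methyltransferase of eEF2, held 851, 1004, 978 and 893 normalized counts in the control, 548, 456, 461 and 521 under pyrimethamine, and 1743, 1884, 1611 and 1719 under mitoxantrone. The groups did not overlap, at 1.88-fold lower (log2 change -0.91, SE 0.0725, adjusted p = 1.27e-09) and 1.87-fold higher (log2 change 0.90, adjusted p = 4.39e-10) than the control, and 3.50-fold apart from each other (adjusted p = 1.67e-15). Of its exon sequence, 29.3% overlaps ALG1. EEF2K, the kinase that inhibits eEF2, held 3338, 3328, 3266 and 3156 in the control and 2269.6, 2534, 2425 and 2567 under pyrimethamine, 1.34-fold lower (log2 change -0.42, adjusted p = 2.83e-07). Under mitoxantrone EEF2K had 0.12 (adjusted p = 0.0290), a call lost under 9 of 25 other settings, with 0.08 (adjusted p = 0.107) without mitoxantrone replicate 1.

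The methyltransferases of eEF1A varied in direction. EEF1AKMT4 rose under mitoxantrone from 503 ± 28.0 to 851 ± 114 (SD, n = 4 each; log2 change 0.75, adjusted p = 4.22e-07), but 46.8% of its exon sequence overlaps other genes. EEF1AKMT3 fell there from 509 ± 59.3 to 360.2 ± 20.6 (log2 change -0.49, adjusted p = 3.54e-05). EEF1AKNMT, the dual methyltransferase of eEF1A also known as METTL13, rose under pyrimethamine by 0.15 (adjusted p = 0.00239) and fell under mitoxantrone by 0.21 on the log2 scale (adjusted p = 6.40e-05). EEF1AKMT1 did not pass the test in any comparison.

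Transcript starts of selected members are shown next because TOP mRNAs are a shared target of mTORC1. The start was not used to define the members. A start was called TOP-like where the annotated first base was C and the next 4 or more were C or T. It was found in 12 of the 51 matched members, against 4.602% of 15842 protein-coding genes. By a looser measure, a C-led pyrimidine run of at least 6 within 10 bases of the start, it was 19 of the 51 against 20.78%. The first base was the RefSeq gene start for 24899 of 35115 promoters compared. The windows run from 15 bases before to 15 bases from the start on, with the pyrimidine tract in capitals. Of the TOP-like members, EIF2D, EIF2S3B, EIF3D (not called under mitoxantrone) and EIF3K are not shown. After them come 4 members without a TOP-like start, which have no capitals. Of these 4, EIF4E was higher, EIF6 and EIF4EBP2 lower and EIF2S1 not called under mitoxantrone. They do not stand for all 39 members without a TOP-like start, of which 24 were higher. All windows come from RefSeq on GRCh38.p14, and the annotated first base may differ from the one used in these cells.
EEF1A1: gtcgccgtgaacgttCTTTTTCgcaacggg
EEF2: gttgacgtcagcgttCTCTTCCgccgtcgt
EIF4B: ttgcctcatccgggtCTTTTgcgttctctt
EIF2S3: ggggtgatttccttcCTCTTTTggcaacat
EIF2A: tcacccgagcggtttCTCTTTCCgggacaa
EIF3F: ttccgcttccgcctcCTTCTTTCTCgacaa
EIF3M: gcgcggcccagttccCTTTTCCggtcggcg
EIF4A2: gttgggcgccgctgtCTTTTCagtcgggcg
EIF2S1: gcgaggaggttccgcatgcgcggtggagtg
EIF6: ttacttggtaagctggtgtgaggggaacct
EIF4E: ccttctggagcggttgtgcgatcagatcga
EIF4EBP2: ctcccgccttcgcccgcttccggtcgtcgt

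The windows lie at chr6:73521018-73521047 (EEF1A1, minus strand), chr19:3985449-3985478 (EEF2, minus strand), chr12:53006441-53006470 (EIF4B, plus strand), chrX:24054941-24054970 (EIF2S3, plus strand), chr3:150546772-150546801 (EIF2A, plus strand) and chr11:7987322-7987351 (EIF3F, plus strand). The other starts lie at chr11:32583816-32583845 (EIF3M, plus strand), chr3:186783562-186783591 (EIF4A2, plus strand), chr14:67360313-67360342 (EIF2S1, plus strand), chr20:35284703-35284732 (EIF6, minus strand), chr4:98929119-98929148 (EIF4E, minus strand) and chr10:70404130-70404159 (EIF4EBP2, plus strand). Under mitoxantrone 11 of the 12 members with a TOP-like start were higher, 0 lower and 1 (EIF3D) not called (median log2 change 0.45). The highest of the 11, EIF2S3B at 0.84, is among the members with uncertain counts. Of the 39 without a TOP-like start 24 were higher, 5 lower and 10 not called, with a median of 0.22. Over all genes 33.5% were higher and 35.8% lower. The 39 include EEF1B2, which is in the list of TOP genes described below, and EIF3H of that list had no matched start. The split by annotated start is thus not a split into TOP and other mRNAs. Under pyrimethamine 5 of the 12 were lower, 1 (EIF3F) higher and 6 not called, with a median of -0.11, and of the 39 others 14 were lower, 10 higher and 15 not called, with a median of -0.03. Between the drugs all 12 were higher under mitoxantrone, by 0.09 for EIF3F to 1.27 for EIF4B; the value for EIF3F (adjusted p = 0.0406) did not pass in 12 of 25 other settings. These counts describe the members and were not tested as a group.

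**Figure D5:**
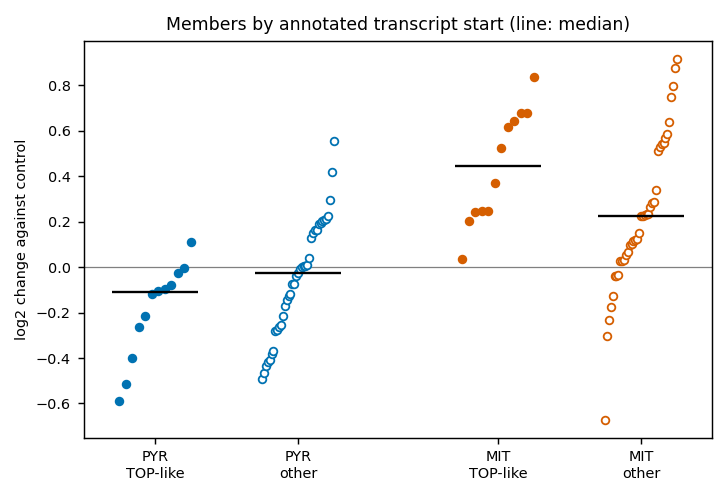
Log2 change against the control (vertical axis) of the 51 members with a matched RefSeq start, ordered by size within each column, for pyrimethamine (PYR, blue) and mitoxantrone (MIT, orange), with filled points for the 12 TOP-like starts, open points for the 39 others and a line at each median. The medians are -0.11 and -0.03 under pyrimethamine and 0.45 and 0.22 under mitoxantrone, and the columns overlap widely.

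Other genes of translation, from lists drawn up by function, are given for context and were not tested as groups. Of all genes, 69.3% were called under mitoxantrone (33.5% higher, 35.8% lower) and 53.3% under pyrimethamine (26.4% higher, 26.9% lower). Of 13 TOP genes other than ribosomal protein genes, 8 of them members, 12 were higher, 0 lower and 1 (TPT1) not called under mitoxantrone (median 0.44). Under pyrimethamine 4 were higher, 5 lower and 4 not called (median -0.02), with -0.78 for HNRNPA1, a splicing regulator, and 0.45 for the member EIF3H. PABPC1, the main poly(A)-binding protein gene, rose under either drug, by 0.36 and 0.37, while PAIP2B, an inhibitor of that protein, rose by 1.03 under pyrimethamine and fell by 0.33 on the log2 scale under mitoxantrone. Termination and recycling genes changed little, with 4 of 5 higher and 0 lower under mitoxantrone and at most 0.30 (ABCE1, the recycling ATPase).

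Among 18 genes of mTORC1 and translation kinases, 10 were higher, 5 lower and 3 not called under mitoxantrone (median 0.13), and 7 higher, 6 lower and 5 not called under pyrimethamine (median -0.02). DDIT4, which encodes the mTORC1 inhibitor REDD1, fell under pyrimethamine by 1.14 on the log2 scale and rose under mitoxantrone by 1.96. MTOR, the kinase itself, fell under mitoxantrone by 0.60 on the log2 scale and rose under pyrimethamine by 0.21. Of 13 genes of the eIF2 phosphatase and the integrated stress response, 7 were higher and 6 lower under mitoxantrone, and 5 higher, 6 lower and 2 not called under pyrimethamine. ATF4, the transcription factor made when eIF2 is phosphorylated, fell under pyrimethamine by 1.24 on the log2 scale and rose under mitoxantrone by 1.46. ASNS, an ATF4 target, had -1.55 under pyrimethamine (SE 0.389), but on only 19.7 to 63.6 normalized counts in the control and 7.12 to 23.7 under pyrimethamine, which overlap. ATF3 had the largest rise of this list under pyrimethamine, 0.85, and the largest fall under mitoxantrone, -0.88. PPP1R15A, which encodes the inducible subunit GADD34 of the eIF2 phosphatase, had 0.10 under pyrimethamine (adjusted p = 0.0719) and fell under mitoxantrone by 0.28 on the log2 scale.

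Genes for the helper steps went several ways. Of 9 scanning and re-initiation genes, 7 were higher and 2 lower under mitoxantrone (median 0.22), and 2 higher, 5 lower and 2 not called under pyrimethamine (median -0.13), with DDX3X, a scanning helicase, at 0.56 and -0.38. Of 6 hypusine and polyamine genes, 5 were higher and 0 lower under pyrimethamine (median 0.30), led by ODC1, the first enzyme of polyamine synthesis, at 0.70. Under mitoxantrone 4 of them were higher and 1 lower, DOHH, which completes hypusine on eIF5A, at -0.59. Of 7 diphthamide genes, which modify eEF2, 4 were higher and 1 lower under mitoxantrone, with DPH6 highest at 1.60, and 3 were higher and 0 lower under pyrimethamine. Of 6 selenocysteine genes, SECISBP2 rose most under mitoxantrone, by 1.18, and EEFSEC, the selenocysteine elongation factor, fell most under pyrimethamine, by 0.60 on the log2 scale. The 10 mitochondrial translation factors had medians of 0.0036 under pyrimethamine and 0.06 under mitoxantrone, with MRRF, the ribosome recycling factor, at 1.09 under mitoxantrone.

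Over the 12 libraries, the 5 tested genes outside the members whose log2 values followed EIF4EBP1 most closely were SHMT2 (Pearson r = 0.997), PHGDH (0.997), TRIB3 (0.996), FAF1 (0.996) and YARS (0.996). SHMT2 and PHGDH encode enzymes of serine and glycine metabolism, TRIB3 a pseudokinase and YARS the tyrosyl-tRNA synthetase. The points are 3 groups of 4 libraries, so r mostly reflects the group means and is given as a description. TRIB3 had log2 changes of -0.70 under pyrimethamine and 1.22 under mitoxantrone, beside -0.76 and 1.24 for EIF4EBP1, and the other 4 had smaller ones, of -0.44 to -0.56 and 0.71 to 0.84.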

How the data were processed

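Per the submitters' processing notes, the tools included STAR 2.6.90c, featureCounts 1.5.1, cutadapt 1.12 and FastQC 0.11.5, and the builds hg38 and mm10. The authors deposited a normalized signal per gene and library (reads divided by 1 factor per library), and multiplying back gave whole reads for 100.0% of values (within 0.01 read). The tool behind the factors and the strand setting are not given in the sources used here. The 16950 genes that reached 10 in 4 or more of the 12 libraries were fitted with limma 3.58.1 (R 4.3.3) on log2(value + 1), group as the only term, eBayes with a trend, two-sided, Benjamini-Hochberg over all genes tested, calls at 0.05. Fits were tried on simulated data. Settings tried were other pseudocounts, filters, scalings and variance models, only the 8 libraries compared, a replicate block, each library left out, and edgeR 4.0.16 and DESeq2 1.42.0 on recovered reads, 25 in all. Folds were computed from the fitted log2 changes. Coordinates and exon lengths are from GENCODE 29 (GRCh38). Members named were a list set by role (eIF2, its kinases and eIF2B, eIF4E, EIF4A1, EIF4A2, the eIF4G and 4E-binding protein genes, eIF5A, EEF1A1, EEF1A2, EEF2, EEF2K), those with the largest rise or fall in a factor group, and those changed at least 1.5-fold. Other members were named after their values were seen. Members and lists were chosen with earlier results of these data known. Depth was 47465335 to 94516756 reads per library. Figures used matplotlib 3.10.9.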

Additional observations from a re-analysis of the deposited data

Results flagged for a closer look

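In 11 of 138 groups of 4 libraries checked (46 named members in 3 groups), 1 library lay further from the other 3 than Dixon's 95% limit; chance marks about 1 in 20 groups. Of these, 7 were mitoxantrone replicate 1. Its EEF1A1 value was 541454 normalized counts, against 690672 to 697723 in the other 3 mitoxantrone libraries. In that library EEF1B2 was at 20958 (others 25589 to 26067), EIF2B3 at 3387 (others 3997 to 4108), EIF2S1 at 13694 (others 14916 to 15106) and EIF3I at 15775 (others 18084 to 18431). Its EIF4B value was 63718 (others 72375 to 73714), and EIF4EBP2 was higher there, at 8334 (others 6977 to 7175). The remaining ones were EIF2S3B in mitoxantrone replicate 3, at 48.2 (others 42.0 to 43.0), EIF3E in pyrimethamine replicate 4, at 18177 (others 16683 to 16887), EIF4E in pyrimethamine replicate 4, at 4229 (others 3986 to 4020.3), and EIF4EBP1 in pyrimethamine replicate 1, at 2437 (others 2219 to 2250.4).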

How the results depend on the processing

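Counts of members called stayed within 1.5 times those reported under all 25 other settings. Leaving out 1 library gave 13 to 15 higher and 22 to 30 lower for pyrimethamine, 43 to 46 and 8 to 8 for mitoxantrone, and 46 to 48 and 10 to 11 between the drugs. The other settings gave 10 to 15 and 22 to 34, 37 to 46 and 8 to 12, and 44 to 47 and 10 to 11. Over the named members and settings, 3330 values kept direction and call, 32 changed sign without being called either way, 34 lost a call, 42 gained one and 3 changed sign with a call under 1 or both settings, all 3 under quantile normalization: EIF4G1 had -0.029 for pyrimethamine and -0.27 for mitoxantrone, and EIF3A had -0.046 for mitoxantrone. The cause was not tested. Replicate numbers did not pair the libraries: deviations of same-numbered libraries correlated at -0.01 to 0.03, and in 8 of 24 comparisons of a library with another group the best match had its own number. With a replicate block, 14 members were higher and 25 lower for pyrimethamine and 46 and 8 for mitoxantrone. Few counts limit the precision of the changes given for EIF4A1, EIF3CL, EIF2S3B and EIF5AL1.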
